A study of Mus musculus with 6 samples.

Results

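The acentrosomal spindle pole organizers were 10 genes whose products gather microtubule ends into poles in cells that lack centrioles: Tacc3, Ckap5, Cltc, Pcnt, Cep192, Numa1, Tpx2, Tubg1, Tubgcp2 and Haus6. They were taken by gene symbol, and not by a threshold on their values, as the Ensembl gene entries of the expression matrix that carry these symbols, and all 10 were found among 60193 listed genes. Pools of mature metaphase II (MII) oocytes were taken for mRNA sequencing as 3 biological replicates in each of 2 groups, and every pool held 20 oocytes from 3 female ICR mice aged 42 to 45 weeks, all primed with PMSG, a gonadotropin that drives follicle growth. In the in vitro matured (IVM) group, immature oocytes were stripped of their cumulus cells and reached MII during 12 h of culture in M16 medium. In the in vivo matured (IVO) group, the mice also received hCG, which triggers ovulation, and MII oocytes were taken from the oviduct 14 h later and freed of cumulus cells with hyaluronidase. The groups therefore differed in hCG exposure, in contact with cumulus cells during maturation and in time, which cannot be told apart. Oocytes of young mice were not analysed here, so all values describe a single age class and strain.

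The mouse oocyte loses its centrioles while it grows and builds its meiotic spindle from many acentriolar microtubule organizing centres, which fragment, spread around the chromosomes and then sort into both poles. Pericentrin and CEP192 form the scaffold of these centres, gamma-tubulin ring complexes nucleate microtubules on them, and augmin adds nucleation along existing microtubules. TACC3, chTOG (the product of Ckap5) and clathrin heavy chain bind one another and cross-link and stabilise spindle fibres, while NuMA focuses the ends with dynein and TPX2 acts downstream of the small GTPase Ran. Transcription is silent during meiotic maturation, and stored mRNAs are translated, deadenylated or degraded in a set order. Elements close to the 3′ end of the mRNA, such as the cytoplasmic polyadenylation element, are known for their part in that order.

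The 3′ ends of the members in the mouse genome (GRCm39, GENCODE annotation) are shown because the libraries were primed on poly(A) tails and because these ends carry the elements that act on stored oocyte mRNAs. The letters TTTTAT or TTTTAAT, forms of the cytoplasmic polyadenylation element, were searched on the transcript strand in the last 100 bases of each canonical transcript and were found in Ckap5, Cltc and Numa1, 3 of 10 members, against 17% of 19736 transcripts. The polyadenylation signal AATAAA or ATTAAA stood within the last 50 bases of 9 of 10 members, all but Tacc3, against 73.9% of transcripts. The windows run 5′ to 3′ on the transcript strand, with the polyadenylation element in capitals for Ckap5 (chr2:91450970-91450999, plus strand), Cltc (chr11:86585247-86585276, minus strand) and Numa1 (chr7:101664289-101664318, plus strand). For Pcnt (chr10:76186854-76186883, minus strand), the member that passed the test described further on, the capitals mark the polyadenylation signal.
Ckap5: aatttaagagacTTTTATaaataaagtttg
Cltc: caTTTTAATcaagtagcactccagggcttt
Numa1: attctgaatTTTTATttggcaagaggcagt
Pcnt: tgatcatgctcaATTAAAgtttggcccaga
The element began 39 bases before the transcript end in Ckap5, 98 in Cltc and 91 in Numa1, and the polyadenylation signal of these genes began 32, 23 and 18 bases before it. In Ckap5 the element and the signal were thus close neighbours, whereas in Cltc and Numa1 most of the searched stretch lay between them. Pcnt held none of the searched polyadenylation elements in its last 100 bases, and its signal began 31 bases before the end. A match describes letters in the annotated transcript, and its use in these oocytes was not measured.

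Values are FPKM, fragments per kilobase of transcript scaled to the mapped fragments of the library, which allow levels to be compared between genes because they are given per length. Sequencing depth, read from the spacing of the lowest FPKM, was 16490000 to 19400000 fragments in the IVM pools and 17820000 to 18110000 in the IVO pools. The inferred mean fragment length differed between the groups, at 206 to 218 bases in IVM and 249 to 263 bases in IVO, and its part in the results was not tested. All 10 oocyte markers examined were detected, and Zp1, Zp2, Zp3, Nlrp5 and Bmp15 were lower in IVO oocytes (5 of 10 with an adjusted p under 0.05, limma, beside 21.5% of all tested genes), with a summed level of 21330 to 27820 FPKM in IVM and 21080 to 23300 FPKM in IVO. Of 12 cumulus and granulosa cell markers, 10 were under 1 FPKM in every pool, and Amh was at 0 throughout. The sum of the list was 24.1 to 33.9 FPKM in IVM and 30.5 to 35.6 FPKM in IVO, nearly all of it Fshr and Cyp19a1. Has2, Ptx3 and Tnfaip6, named after their values were seen, were too low to test but higher in IVO without overlap. They were at 0.17 to 0.37, 0.07 to 0.17 and 0.34 to 0.49 FPKM in IVO, against at most 0.14, 0.03 and 0.14 FPKM in IVM. This corresponds to at most about 27, 5 and 13 fragments in a pool. Among all tested genes, 9.62% were higher in IVO without overlap. The other markers of this list overlapped between the groups. Markers of leukocytes, erythrocytes, oviduct, endothelium and fibroblasts summed to 3.87 to 5.78 FPKM in IVM and 4.49 to 8.86 FPKM in IVO over 6 genes. Of these, the erythrocyte genes Hba-a1 and Hbb-bs were at 0.96 to 2.33 FPKM in IVO replicates 2 and 3. They were at 0 in IVO replicate 1 and at most 0.15 FPKM in IVM. In pooled oocytes, a lower mRNA level in every oocyte and a smaller share of oocytes holding the mRNA cannot be told apart.

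The question was whether the mRNAs of the pole organizers differed between oocytes matured in culture and oocytes matured in vivo. One member, Pcnt, was lower in IVO oocytes by the threshold of an absolute log2 fold change (IVO minus IVM, on the log2(FPKM + 1) scale) of at least 1 and an adjusted p under 0.05 (limma, Benjamini-Hochberg over 18818 genes), and no member was called higher. Among all tested genes, 18.5% were called, 17.9% lower and 0.606% higher, so 1 of 10 members did not exceed the background. The FPKM of the IVM and IVO pools did not overlap for 3 members, with Pcnt and Cep192 lower (32.6% of all tested genes) and Tpx2 higher (9.62% of all tested genes). The median log2 fold change of the members was -0.14, beside -0.30 over all tested genes. When the libraries were rescaled by the median of ratios, which brought the median of all tested genes to -0.04, the median of the members was 0.17, and the calls over all tested genes shifted from 3366 lower and 114 higher to 2130 lower and 385 higher. The direction of the smaller differences among the members therefore depended on the scaling.

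**Figure D1:**
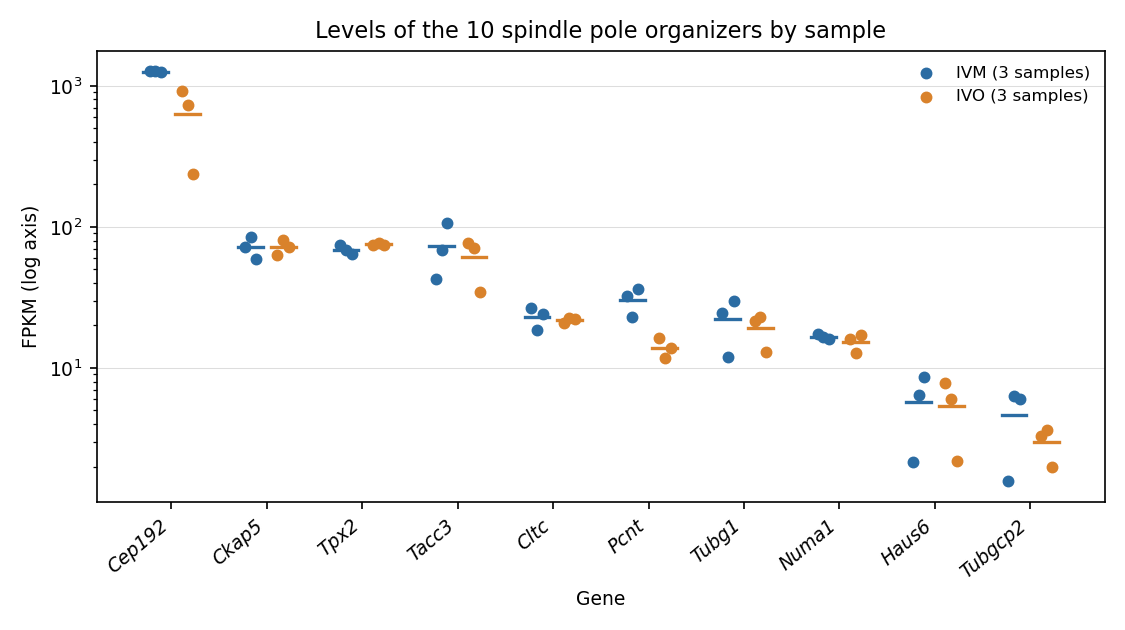
FPKM (log axis) of the 10 pole organizer genes in each of the 3 IVM and 3 IVO pools, with 1 point per pool and a bar at each group mean. Cep192 lay above all other members in both groups, Pcnt was lower in all 3 IVO pools, and most other members overlapped between the groups.

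In both groups the members fell into tiers of level that did not overlap. Cep192 stood highest, at 1260 ± 13.7 FPKM (SD, n = 3) in IVM oocytes, and ranked 366 of 18818 tested genes by mean level over the 6 pools. Tacc3, Ckap5 and Tpx2 followed at group means of 60.7 to 75.3 FPKM and overlapped one another in at least one group. Pcnt, Cltc, Tubg1 and Numa1 formed the next tier, with means of 14 to 30.5 FPKM, in which neighbours in order overlapped in their pools. Haus6 and Tubgcp2 were the lowest, between 1.58 and 8.60 FPKM in single pools. The order of tiers was the same in both groups, but within its tier Pcnt moved from the highest mean in IVM to the lowest in IVO.

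Pericentrin, encoded by Pcnt (chromosome 10, 76186841 to 76278706, minus strand), is the scaffold of the acentriolar microtubule organizing centres and anchors gamma-tubulin. Its mRNA was at 32.39, 22.98 and 36.05 FPKM in IVM replicates 1 to 3 and at 16.19, 11.76 and 13.91 FPKM in IVO replicates 1 to 3. Each IVO pool was below each IVM pool. The means were 30.5 ± 6.74 and 14 ± 2.22 FPKM (SD, n = 3 each), an IVO to IVM ratio of 0.458, and the log2 fold change was -1.06 (SE 0.24, 95% confidence interval -1.62 to -0.50, adjusted p = 0.0197, limma). The estimate was just past the fold threshold of 1. After median-ratio scaling the log2 fold change was -0.75 (adjusted p = 0.0499, limma), and after quantile normalization it was -0.57 (adjusted p = 0.1, limma), so Pcnt kept its direction and was no longer called. Leaving out 1 pool at a time gave log2 fold changes of -1.24 to -0.93, and the adjusted p rose to 0.0637 without IVM replicate 1, 0.0549 without IVM replicate 3 and 0.0676 without IVO replicate 2 (limma).

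CEP192, encoded by Cep192 (chromosome 18, 67933152 to 68018241, plus strand), recruits and activates Aurora A and Polo-like kinases at organizing centres. The IVM pools held 1265.44, 1267.48 and 1242.80 FPKM, whereas the IVO pools held 919.09, 731.78 and 238.76 FPKM. The IVM pools were nearly identical, the IVO pools were all lower, and IVO replicate 3 lay far below the other 2. The IVO mean was 630 ± 351 FPKM (SD, n = 3), and the log2 fold change of -1.21 (SE 0.46, 95% confidence interval -2.30 to -0.12) did not pass the test (adjusted p = 0.104, limma). Without IVO replicate 3 the log2 fold change was -0.62 (SE 0.18, adjusted p = 0.0579), and without IVO replicate 1 it was -1.59 (adjusted p = 0.0531, limma). No left-out pool brought the gene past the test, and its size depended on which IVO pools were kept. The other pericentriolar genes examined, Cdk5rap2, Pcm1 and Akap9 among 4 listed, gave no adjusted p under 0.05, beside 23.4% of all tested genes that did. Cep68 was too low to test.

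**Figure D2:**
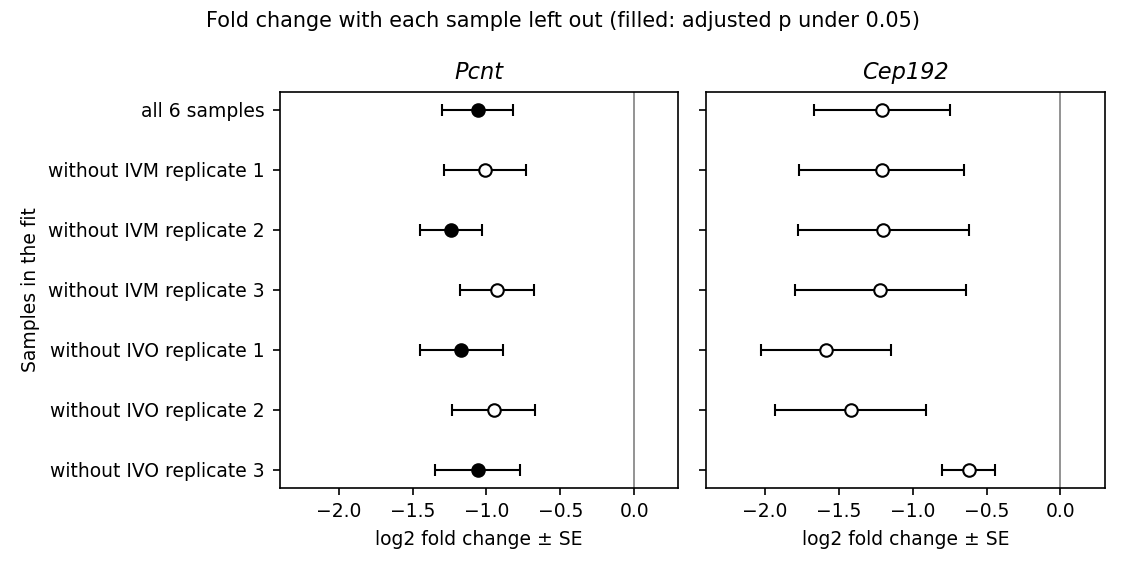
Log2 fold change (IVO minus IVM) of Pcnt and Cep192 with all 6 pools and with each pool left out in turn, with error bars for the SE and filled points for an adjusted p under 0.05 (limma). Pcnt stayed between -1.24 and -0.93, whereas Cep192 ranged from -1.59 to -0.62 and had no filled point.

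TACC3, chTOG and clathrin form the complex that bridges and stabilises spindle microtubules, and none of the 3 mRNAs passed the test. Tacc3 (chromosome 5, 33814765 to 33836339, plus strand) ranged widely within both groups, at 42.91, 68.76 and 106.95 FPKM in the IVM pools and 77.01, 70.79 and 34.40 FPKM in the IVO pools. Its groups overlapped, and the log2 fold change was -0.25 (95% confidence interval -1.23 to 0.74, adjusted p = 0.712, limma). Ckap5 (chromosome 2, 91357102 to 91451020, plus strand), whose product is a microtubule polymerase, was steadier at 72.15, 85.21 and 59.45 FPKM in IVM and 63.49, 80.95 and 71.68 FPKM in IVO. The means of 72.3 ± 12.9 and 72.0 ± 8.74 FPKM (SD, n = 3 each) gave a log2 fold change of 0.00, and the 95% confidence interval of -0.48 to 0.48 leaves room for moderate differences in either direction.

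Cltc (chromosome 11, 86584060 to 86648928, minus strand) encodes clathrin heavy chain, which also coats endocytic vesicles. It was at 26.57, 18.70 and 24.04 FPKM in IVM and 20.69, 22.53 and 22.40 FPKM in IVO, and the IVO pools lay inside the range of the IVM pools. The log2 fold change was -0.06 (95% confidence interval -0.54 to 0.41, adjusted p = 0.856, limma). Relatives of the complex were examined beside it. Cltb, a clathrin light chain, fell from 15.83, 10.02 and 17.14 FPKM to 2.13, 2.81 and 2.47 FPKM, with a log2 fold change of -2.12 (adjusted p = 0.00253, limma). Clta, the other light chain, was at 7.08 to 19.64 FPKM in IVM and 7.35 to 8.11 FPKM in IVO (log2 fold change -0.46, adjusted p = 0.386, limma). Tacc1 and Tacc2, named here after their values were seen, also fell, with log2 fold changes of -0.97 (adjusted p = 0.0261) and -0.79 (adjusted p = 0.029, limma), but after median-ratio scaling their adjusted p was 0.111 and 0.131. In all, 3 of 4 tested relatives passed the test, all lower, beside 21.5% of all tested genes, and after median-ratio scaling 1 did, beside 13.2%.

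Gamma-tubulin and its ring complex nucleate microtubules at the organizing centres. Tubg1 (chromosome 11, 101010744 to 101017251, plus strand), which encodes gamma-tubulin 1, was at 24.58, 12.00 and 29.97 FPKM in IVM and 21.45, 23.03 and 13.03 FPKM in IVO. Each group held a single low pool, IVM replicate 2 and IVO replicate 3, the groups overlapped, and the log2 fold change was -0.15 (95% confidence interval -1.03 to 0.74, adjusted p = 0.813, limma). Its coding sequence shares 93.3% of bases with that of Tubg2, and 15 of 1678 windows of 150 bases were identical, so some reads could be split between both genes. Tubg2 was the more abundant in every pool, at 103.80, 53.40 and 80.91 FPKM in IVM and 47.43, 48.92 and 58.89 FPKM in IVO (log2 fold change -0.56, adjusted p = 0.176, limma). Summed, both gamma-tubulin mRNAs gave 128.4, 65.4 and 110.9 FPKM in IVM and 68.9, 72.0 and 71.9 FPKM in IVO, and IVM replicate 2 lay below all IVO pools.

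Tubgcp2 (chromosome 7, 139573029 to 139616606, minus strand) encodes a core subunit of the gamma-tubulin ring and was the lowest member. It was at 1.58, 6.29 and 6.0 FPKM in IVM and 3.30, 3.61 and 2.00 FPKM in IVO, which corresponds to about 71 to 336 fragments per pool. The groups overlapped, and the log2 fold change was -0.38 (95% confidence interval -1.41 to 0.65, adjusted p = 0.576, limma). Zfp511, on the opposite strand, shares 221 exonic bases with Tubgcp2 and was at 24.50 to 36.76 FPKM in IVM and 12.86 to 17.13 FPKM in IVO. The kit does not mark strand, so reads from these shared bases cannot be assigned to one gene.

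Among the other ring genes, Mzt1 and Nedd1 passed the test and were higher in IVO oocytes. Mzt1, a small protein of the ring complex, rose from 59.86, 58.70 and 49.57 FPKM in IVM to 130.97, 110.89 and 160.02 FPKM in IVO, a log2 fold change of 1.23 (SE 0.20, adjusted p = 0.00669, limma). Nedd1, which targets the ring complex to the spindle, rose from 71.36, 64.93 and 69.61 FPKM to 119.80, 107.30 and 93.40 FPKM (log2 fold change 0.62, SE 0.17, adjusted p = 0.0398, limma). No pool of one group overlapped the other for either gene, beside 9.62% of all tested genes that were higher without overlap. Nedd1 no longer passed when any 1 pool was left out (adjusted p 0.0529 to 0.14, limma), while after median-ratio scaling its log2 fold change was 0.94 (adjusted p = 0.0133). Of the 8 further ring genes, 6 were tested, 2 passed the test and both were higher, beside 1.87% of all tested genes that passed higher and 21.5% that passed lower, and Tubgcp3 and Tubgcp6 were too low to test. The part that shared bases play was not tested: Mzt1 shares 114 exonic bases with Bora on the opposite strand, and Bora also rose.

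Haus6 (chromosome 4, 86497090 to 86530305, minus strand) encodes the augmin subunit that binds the gamma-tubulin ring. It was at 2.15, 6.43 and 8.60 FPKM in IVM and 7.84, 5.98 and 2.18 FPKM in IVO, or about 211 to 978 fragments per pool. Each group held 1 low pool, IVM replicate 1 and IVO replicate 3, and the log2 fold change was -0.07 (95% confidence interval -1.30 to 1.17, adjusted p = 0.945, limma), an interval that reaches beyond a 2-fold change in either direction. The same pools were the lowest of their groups for Tacc3 and Tubgcp2.

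Augmin itself has 8 subunits, and of the 7 others 6 were tested. Of these, 1 passed, lower, beside 21.5% of all tested genes that passed lower. Haus1 fell from 191.81, 135.36 and 96.13 FPKM in IVM to 11.33, 16.63 and 17.99 FPKM in IVO, with a log2 fold change of -3.09 (SE 0.30, adjusted p = 0.00149, limma), and it stayed between -3.34 and -2.84 when pools were left out. All IVO pools were far below all IVM pools. Haus1 shares 129 exonic bases with Atp5f1a on the opposite strand, and the part that these bases play was not tested. Haus3, named here after its values were seen, was the most abundant subunit in IVO oocytes at 124.25 to 130.97 FPKM, beside 117.13 to 135.33 FPKM in IVM (log2 fold change 0.03, adjusted p = 0.90, limma). The mRNAs of subunits of one complex therefore lay far apart in level, with Haus6 among the low ones.

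**Figure D3:**
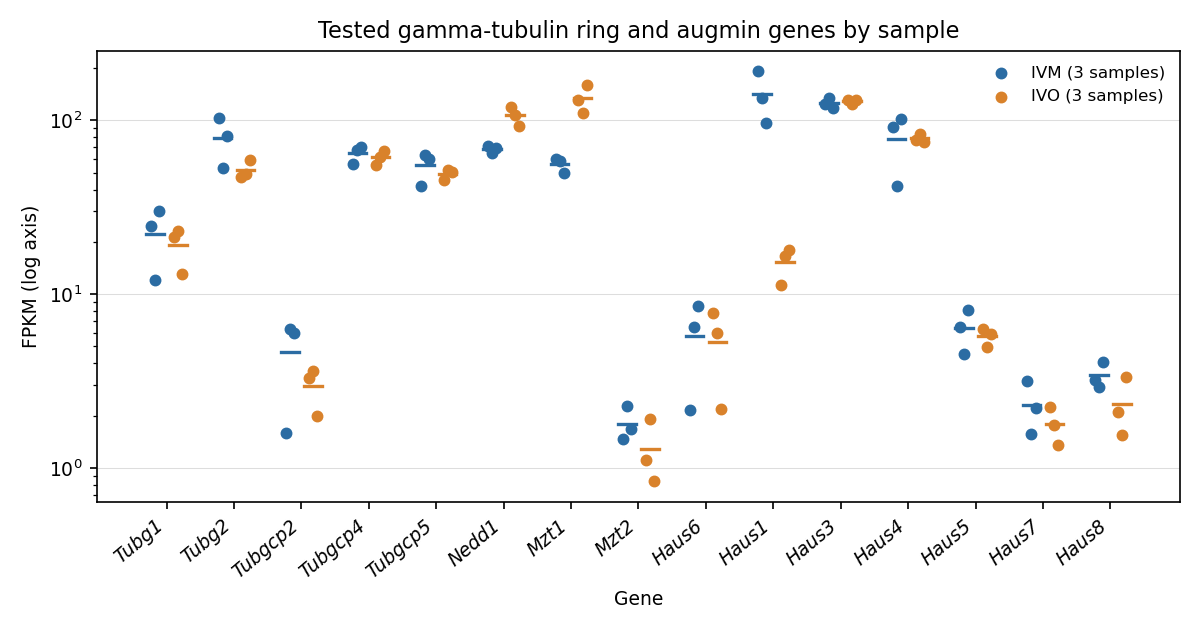
FPKM (log axis) of the tested gamma-tubulin ring and augmin genes in each pool, with 1 point per pool and a bar at each group mean. Mzt1 and Nedd1 were higher and Haus1 was lower in all IVO pools, while Tubg1, Tubgcp2 and Haus6 overlapped between the groups.

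NuMA, encoded by Numa1 (chromosome 7, 101583161 to 101664388, plus strand), tethers and focuses microtubule minus ends together with dynein. Its mRNA was at 17.36, 16.63 and 16.03 FPKM in IVM and 16.06, 12.81 and 17.08 FPKM in IVO. The groups overlapped, with means of 16.7 ± 0.666 and 15.3 ± 2.23 FPKM (SD, n = 3 each), and the log2 fold change was -0.12 (95% confidence interval -0.58 to 0.33, adjusted p = 0.688, limma). Dync1h1, the heavy chain of the dynein motor, fell from 202.58, 184.21 and 168.65 FPKM to 79.83, 92.75 and 113.37 FPKM (log2 fold change -0.96, adjusted p = 0.0131, limma), just under the fold threshold, and its adjusted p was 0.0726 after median-ratio scaling. Wdr62, a spindle pole protein, was at 42.19, 221.91 and 57.66 FPKM in IVM and 26.91, 0.31 and 0.34 FPKM in IVO (log2 fold change -4.50, SE 1.23, adjusted p = 0.0378, limma). Its IVO pools disagreed with one another, and when 1 pool was left out it was called only without IVO replicate 1 (adjusted p = 0.00518, against 0.0687 to 0.123 for the other pools, limma). Of 10 pole focusing genes, 6 were tested and 2 passed, Dync1h1 and Wdr62, both lower, beside 21.5% of all tested genes that passed lower. After median-ratio scaling 0 passed lower, beside 13.2%.

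TPX2, encoded by Tpx2 (chromosome 2, 152689854 to 152737245, plus strand), nucleates microtubules near chromosomes and activates Aurora A. It was at 73.87, 68.40 and 63.82 FPKM in IVM and 74.25, 77.07 and 74.61 FPKM in IVO. The IVO pools all lay above the IVM pools, by little in the closest pair, and the log2 fold change of 0.13 did not pass the test (95% confidence interval -0.25 to 0.51, adjusted p = 0.598, limma). It was 0.45 after median-ratio scaling (adjusted p = 0.0978) and 0.65 after quantile normalization (adjusted p = 0.0271, limma). The kinase it activates, Aurka, had a log2 fold change of -0.15 (adjusted p = 0.731, limma), and Ran, the GTPase that frees TPX2 from importins, had -0.09 (adjusted p = 0.793, limma). Hmmr, which binds TPX2 and microtubules, was at 14.09 to 14.25 FPKM in IVM and 11.53 to 11.71 FPKM in IVO (log2 fold change -0.26, adjusted p = 0.324, limma). Its groups did not overlap, beside 32.6% of all tested genes that were lower without overlap. Of 9 genes of the Ran pathway, all were tested and 1 passed, lower, beside 21.5% of all tested genes that passed lower. It was Rangap1, the Ran GTPase activator, with a log2 fold change of -0.87 (adjusted p = 0.0176, limma) and an adjusted p of 0.11 after median-ratio scaling. Of the 5 kinases and cofactors, 4 were tested and 1 passed, higher, beside 1.87% of all tested genes that passed higher and 21.5% that passed lower. It was Bora, a cofactor of Aurora A, with a log2 fold change of 0.65 (adjusted p = 0.037, limma). Bora no longer passed whichever pool was left out (adjusted p 0.0543 to 0.127, limma). Rangap1 and Bora were named after their values were seen.

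**Figure D4:**
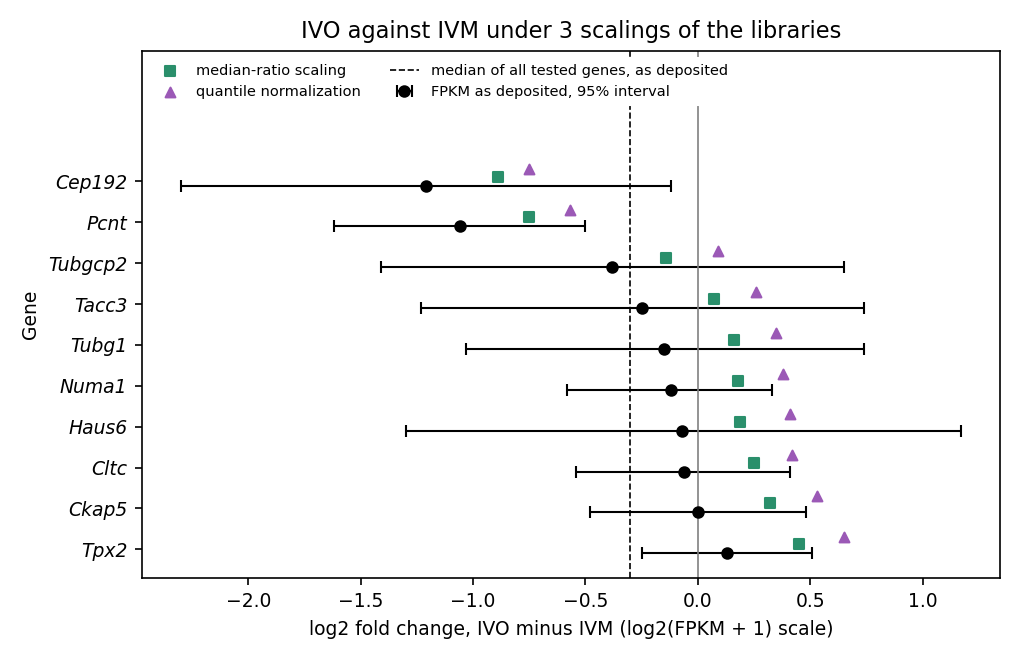
Log2 fold change (IVO minus IVM, log2(FPKM + 1) scale) of each member with its 95% confidence interval, with the estimates after median-ratio scaling and quantile normalization beside it and the median of all tested genes as a dashed line. Pcnt and Cep192 stayed below 0 under all 3 scalings, and Tacc3, Cltc, Numa1, Tubg1 and Haus6 turned from below to above 0 under both rescalings, as did Tubgcp2 after quantile normalization.

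Over the 56 further genes of spindle pole organization, 44 were tested, of which 7 passed the test lower and 3 higher, beside 21.5% lower and 1.87% higher over all tested genes. With the fold threshold, Haus1, Cltb and Wdr62 (3 of 44) were called lower and Mzt1 (1 of 44) higher. Over all tested genes, 17.9% were called lower and 0.606% higher. Wdr62 was no longer called after median-ratio scaling (adjusted p = 0.0532, limma) or quantile normalization (adjusted p = 0.0518, limma). After median-ratio scaling 2 passed lower and 3 higher, beside 13.2% and 7.14% over all tested genes. The median log2 fold change of the list was -0.15, close to that of the members. The called genes came from different machines, an augmin subunit, a clathrin light chain, a pole protein and a ring component. None of the 3 tested pericentriolar or 6 tested centriole duplication genes passed, beside 23.4% of all tested genes in either direction. These are too few genes to set either group apart from that share.

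**Figure D5:**
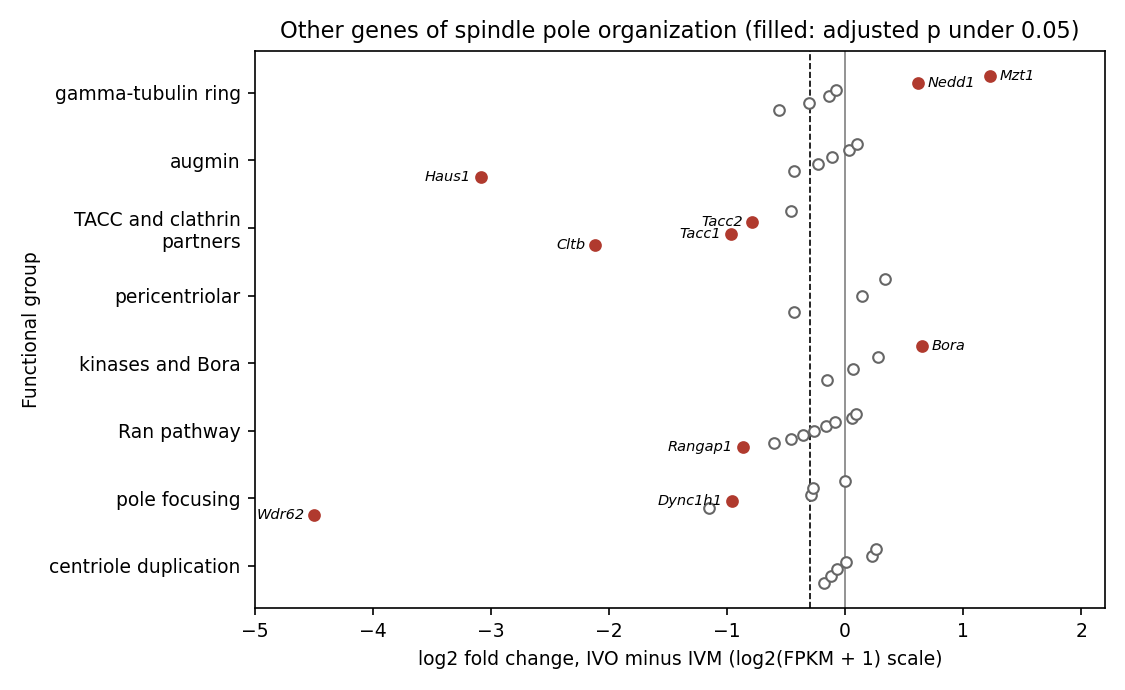
Log2 fold change (IVO minus IVM) of the 44 tested further genes of spindle pole organization by functional group, with filled points for an adjusted p under 0.05 (limma) and a dashed line at the median of all tested genes. Haus1, Cltb and Wdr62 lay furthest below 0, and Mzt1 furthest above.

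A share within one library does not change when all its values are multiplied by one factor, as in median-ratio scaling. Cep192 made up 81.2%, 80.6% and 78.0% of the summed FPKM of the 10 members in the IVM pools and 75.4%, 70.3% and 48.7% in the IVO pools. The groups did not overlap, and the difference in means was -15.1 percentage points (exact two-sided permutation test p = 0.1, the smallest that 3 against 3 samples allow, adjusted p = 0.25 over the 10 shares). Without IVO replicate 3 the difference was -7.05 points. Because Cep192 dominates this sum, the share of Pcnt was also taken among the other 9 members, a choice made after seeing the data. It was 11.0%, 7.52% and 10.3% in IVM and 5.39%, 3.81% and 5.54% in IVO, a difference of -4.70 points without overlap (exact two-sided permutation test p = 0.1, adjusted p = 0.9 over the 9 shares). Over all 10 members the share of Pcnt differed by -0.168 points (exact permutation test p = 0.8), and the sign turned without IVO replicate 1 (0.0509 points) and without IVO replicate 2 (0.15 points). The summed level of the 9 members without Cep192 was 293.6, 305.4 and 350.9 FPKM in IVM and 300.3, 308.5 and 251.3 FPKM in IVO, and the groups overlapped.

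In the deposited annotation, 7 of 10 members carried the term centrosome and 6 of 10 the term spindle pole. All 10 are protein-coding, and 8 of 10 share exonic bases with another annotated gene. Apart from Zfp511 and Snord67, a small nucleolar RNA within Ckap5, these neighbours were at or below 3.56 FPKM in all pools where the matrix lists them, among them Tmem129, which shares 996 exonic bases with Tacc3 and was at 0.03 to 0.37 FPKM.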

How the data were processed

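The authors trimmed paired reads of SMART-Seq v4 and Nextera XT libraries, which do not keep strand, aligned them to GRCm39 with HISAT2 2.1.0 and estimated expression with RSEM 1.3.3. They deposited 1 matrix of FPKM per gene and sample, with loci assembled from the reads added to the annotation, and tested counts with DESeq2 1.24.0. The annotation release is not given in the sources used here, and the group means in the matrix were not used. FPKM are not counts, so limma 3.58.1 (R 4.3.3; linear model, empirical Bayes with trend, group only) was applied here to log2(FPKM + 1), restricted to the 18818 genes that averaged at least 1 FPKM over the 6 pools, with Benjamini-Hochberg adjustment over all of them. This scale understates the fold change of low genes. A gene was called at an absolute log2 fold change of at least 1 and an adjusted p under 0.05, and "passed" refers to the adjusted p alone.

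Samples were grouped by their labels. The members and the further gene lists were chosen by function with earlier results of these data known. Named were all 10 members, Tubg2, Nedd1, Aurka, Plk4, Hmmr, Ran, Dync1h1, Clta and Cltb whatever their values, and called genes of the further list with the largest fold changes. Depth was inferred from FPKM steps, with 78.4% to 80.3% of low values within 0.15 of a whole fragment (30% by chance). The model was tested on simulated data with equally many genes raised and lowered, which does not cover the excess of lower genes seen here. Alternatives were the scaling (median of ratios, quantile), a pseudocount of 0.1, other filters (a mean of 5 FPKM, none), Ensembl entries only, no trend in the variance prior, removal of the trend with transcript length, each pool left out and a replicate block. Motifs were searched in GENCODE transcripts (GRCm39).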

Additional observations from a re-analysis of the deposited data

How the results depend on the processing

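The log2 fold change of Pcnt kept its direction under all alternatives run, and Pcnt was the only member called in any of them. After quantile normalization, and after median-ratio scaling, 0 members were called, and leaving out 1 pool at a time gave 0 to 1. With median-ratio scaling and no fold threshold, an alternative added after seeing the data, 1 member passed. The median log2 fold change of the members was -0.14 in the main fit, 0.17 (median-ratio) and 0.36 (quantile). It was -0.36 with the trend of values with gene length removed. Directions of members that did not pass the test turned with the scaling. The log2 fold changes were 0.07 for Tacc3, 0.25 for Cltc, 0.18 for Numa1, 0.16 for Tubg1 and 0.19 for Haus6 after median-ratio scaling, and 0.26 for Tacc3, 0.42 for Cltc, 0.38 for Numa1, 0.35 for Tubg1, 0.09 for Tubgcp2 and 0.41 for Haus6 after quantile normalization. With the length trend removed, Pcnt was at -1.3 (adjusted p = 0.00909, limma) and Cep192 at -1.46 (adjusted p = 0.0656, limma). Ckap5 was at -0.25 and Tpx2 at -0.13. In that fit 9 of the 44 tested further spindle genes were called, against 4 in the main fit. Beside them, 3444 of 18818 tested genes were called, against 3480 in the main fit. Leaving out single pools gave -0.57 to 0.11 for Tacc3, -0.13 to 0.13 for Ckap5, -0.20 to 0.04 for Cltc, -0.52 to 0.11 for Tubg1 and -0.54 to 0.37 for Haus6. With Ensembl entries only, 2056 genes were called, among 13154 tested rather than 18818. The filter at 5 FPKM removed Tubgcp2. Causes of the other shifts were not tested. Replicates were too few for the share test to pass 0.05.

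Same-numbered IVM and IVO pools did not deviate together (r = -0.0618, -0.0176 and -0.107 for numbers 1 to 3), so the values gave no sign of pairing by number. With 3 pools per group these correlations cannot settle whether same-numbered pools were handled together, which the labels do not say. With a replicate block 2991 genes and 1 member, Pcnt, were called. With the block and the length trend removed, 2824 of 18818 genes, 1 member and 7 of the 44 tested further spindle genes were called. The median log2 fold change of the members was then -0.36, with Ckap5 at -0.25 and Tpx2 at -0.13.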

Other observations

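Genes of centriole duplication, which oocytes hold although they lack centrioles, were also present. Of 8 such genes, 6 were tested and none passed the test (limma, adjusted p under 0.05), beside 23.4% of all tested genes in either direction. Plk4, the kinase that starts centriole duplication and also acts in acentriolar spindle assembly, was at 125.97, 119.29 and 124.04 FPKM in IVM and 104.14, 114.58 and 107.60 FPKM in IVO, without overlap (log2 fold change -0.18, 95% confidence interval -0.54 to 0.18, adjusted p = 0.45, limma). Sass6 and Ccp110, named after their values were seen, did not overlap in the other direction. Of the 6 tested genes, 1 was thus lower and 2 were higher without overlap. Over all tested genes, 32.6% were lower and 9.62% higher without overlap, so such separation was common. Sass6, the cartwheel protein, was at 16.58, 16.68 and 17.20 FPKM in IVM and 20.35, 19.35 and 20.01 FPKM in IVO (log2 fold change 0.23, adjusted p = 0.378, limma). Ccp110, which caps centrioles, was at 25.13, 30.07 and 30.23 FPKM in IVM and 31.84, 34.72 and 35.77 FPKM in IVO (log2 fold change 0.26, adjusted p = 0.352, limma). The summed level of the 8 genes was 210.9 to 219.4 FPKM in IVM and 203.3 to 210.2 FPKM in IVO, while Stil and Cep152 were too low to test.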
